A study of Mus musculus with 20 samples.

Results

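The results concern 7 genes of the SOX family in the dorsal root ganglia of lumbar levels, which hold sensory neurons with their satellite glia and Schwann cells. They were taken by symbol after the Ensembl identifiers of the deposited count table, with the version removed, were matched to the GENCODE M21 annotation of the mouse. All 7 of 7 were found among the 78258 genes of the table, and all 7 passed the filter on low counts, which left 28564 genes for testing. Sox11, Sox4 and Sox12 form group SoxC and are treated as the neuronal members. Sox2 of group SoxB1 and Sox8, Sox9 and Sox10 of group SoxE are treated as the glial members.

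SOX proteins are transcription factors that bind DNA through an HMG box and usually act together with a partner factor. SoxC proteins are known for their part in immature neurons, and Sox11 is known as a factor that injured sensory neurons express again and that promotes axon growth. In the peripheral nervous system Sox10 maintains the glial identity of Schwann cells and satellite glia and switches on myelin genes, Sox2 marks immature glia, and Sox9, which acts early in the glial lineage, is also the master regulator of cartilage. These roles are background; the libraries hold whole ganglia, so the cell that made each transcript was not measured.

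RNA was sequenced from 10 male mice, with separate libraries for the contralateral and the ipsilateral ganglia of each, which makes 4 groups of 5 libraries. The conditional knockout (cKO) was Ahr fl/fl Thy1CRE-ERT2/EYFP, in which both copies of Ahr, the aryl hydrocarbon receptor gene, are floxed and the Thy1 promoter drives a tamoxifen-dependent Cre and a yellow fluorescent protein. Control mice were Ahr f/f or f/+, and no Cre is named for them. The Thy1 promoter is mainly active in neurons, and cells in which it is silent keep their Ahr alleles. Mice of both genotypes received tamoxifen (100 mg/kg, on 5 days) at 17 weeks of age, and both had a sciatic nerve transection 4 weeks later. The L4 to L6 ganglia were collected 1 day after the transection, so the contralateral libraries come from lesioned animals too, and ganglia of uninjured animals were not analysed here. One label names a spinal cord injury; the protocol's sciatic nerve lesion was followed here.

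Libraries held 76.2 to 118.5 M counts (M, mega), and mitochondrial genes took 0.916% to 1.33% of them. The targeted gene Ahr measured 24.2 ± 2.10 CPM (counts per M counts after TMM scaling; mean ± SD, n = 5) in control contralateral and 20.4 ± 0.536 CPM in cKO contralateral libraries, ranges that did not overlap. On the ipsilateral side it measured 34.4 ± 2.86 CPM in control and 31.9 ± 2.94 CPM in cKO. By edgeR's quasi-likelihood test with Benjamini-Hochberg adjustment over the 28564 genes, neither Ahr difference was called (log2 fold change -0.25, adjusted p = 0.103, and -0.11, adjusted p = 1.0). Counts over all exons include exons outside the floxed part and cells without Thy1-Cre. All marker genes listed for sensory neurons, satellite glia and Schwann cells, 14, 8 and 10 in number, passed the filter. Their summed levels ranged over all groups from 11970 to 14360 CPM, 2188 to 2652 CPM and 3524 to 4991 CPM.

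The contralateral cKO libraries of mice H64 and H95 stood apart in cartilage genes, a list chosen after the values were seen. Chad, which encodes the cartilage matrix protein chondroadherin, measured 22.7 CPM in H64 and 36.1 CPM in H95, against 2.65 to 10.1 CPM in the other 3 cKO contralateral libraries. Col2a1, the main collagen of cartilage, measured 45.1 CPM and Acan, its large proteoglycan, 17.1 CPM in H95. Results of SOX members that rest on these libraries are given with and without both mice. Summed cartilage and tendon genes measured 92.2 ± 55.1 CPM in all cKO contralateral and 37.8 ± 4.56 CPM in control contralateral libraries. That cKO mean includes H64 and H95, and the lowest library of the group had 37.1 CPM. Whether leaving out both mice removes all raised cartilage RNA from the cKO contralateral group was not tested.

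The bases just upstream of the 3 SoxC genes are shown because 1 gene of the group rose after the lesion and the others did not. RefSeq promoters of build GRCm38.p6 were matched by symbol for 5 of the 7 members: Sox11, Sox4, Sox12, Sox2 and Sox8. Each window below holds the 250 bases before the transcription start on the gene's own strand, 5′ to 3′, with capitals marking GC boxes (GGGCGG or its complement CCGCCC) and CCAAT boxes (CCAAT or its complement ATTGG). All 3 genes lie on the minus strand, Sox11 at chr12:27342719-27342968, Sox4 at chr13:28953700-28953949 and Sox12 at chr2:152398047-152398296.
Sox11: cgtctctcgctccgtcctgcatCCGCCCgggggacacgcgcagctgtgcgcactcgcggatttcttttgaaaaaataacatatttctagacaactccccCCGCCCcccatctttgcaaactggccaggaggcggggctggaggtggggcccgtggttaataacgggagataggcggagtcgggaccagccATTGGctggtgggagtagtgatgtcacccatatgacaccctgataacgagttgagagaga
Sox4: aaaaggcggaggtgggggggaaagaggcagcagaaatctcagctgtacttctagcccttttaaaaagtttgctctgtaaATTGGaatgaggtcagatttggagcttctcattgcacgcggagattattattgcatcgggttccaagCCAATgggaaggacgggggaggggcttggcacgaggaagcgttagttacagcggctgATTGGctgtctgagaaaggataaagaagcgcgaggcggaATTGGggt
Sox12: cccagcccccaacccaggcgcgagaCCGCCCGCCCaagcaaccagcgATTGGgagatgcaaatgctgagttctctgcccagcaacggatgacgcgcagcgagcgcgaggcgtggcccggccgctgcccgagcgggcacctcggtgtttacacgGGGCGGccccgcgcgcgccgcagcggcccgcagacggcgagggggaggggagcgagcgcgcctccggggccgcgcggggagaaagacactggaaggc
The 3 windows differ in composition and in these motifs. Sox12 had 74.4% GC and 35 CpG dinucleotides, Sox11 58.0% GC and 17 CpG, and Sox4 50.8% GC and 11 CpG, beside medians of 52.4% GC and 6 CpG over 32851 mouse promoters of the same length. A GC box was present in 32.7% and a CCAAT box in 33.8% of those promoters.

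Positions are those of the first base of a match, counted from the transcription start with -1 just before it. Sox11 had GC boxes at -228 and -151 and a CCAAT box at -60. Sox4 had 4 CCAAT boxes, at -171, -104, -47 and -8, and no GC box. Sox12 had GC boxes at -225, -221 and -97, of which the first and second overlap, and a CCAAT box at -203. On either strand, none of the 5 matched windows held the AP-1 site TGACTCA (4.46% of all promoters), the CRE/ATF site TGACGTCA (1.55%) or TATAAA (12.4%). These matches describe the letters of the windows and show no binding.

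Per kilobase of exon, Sox10 was the most abundant member in every group and Sox9 the least. Levels between genes are compared as CPM per kilobase of merged GENCODE M21 exons (RPKM). In control contralateral libraries Sox10 measured 25.9 ± 2.66 RPKM (SD, n = 5), followed by Sox4 at 6.77 ± 0.577, Sox12 at 5.98 ± 0.195 and Sox2 at 4.43 ± 0.471 RPKM. The lowest levels there were 1.71 ± 0.212 RPKM for Sox8, 1.42 ± 0.0810 RPKM for Sox11 and 0.395 ± 0.0556 RPKM for Sox9. Sox4 and Sox12 overlapped in range, while each other pair of neighbours in the order was separate.

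After the lesion the order changed at 1 place above all. Sox11 moved from the sixth place to the second, with 10.6 ± 0.516 RPKM in control ipsilateral and 10.9 ± 1.28 RPKM in cKO ipsilateral libraries, above every ipsilateral Sox4 value (6.04 to 6.78 RPKM). Sox12 and Sox2 overlapped in ipsilateral libraries of both genotypes, as did Sox8 and Sox9. In cKO contralateral libraries the order was that of the control contralateral ones, from Sox10 at 23.9 ± 4.79 RPKM to Sox11 at 1.25 ± 0.0966 RPKM and Sox9 at 0.503 ± 0.236 RPKM.

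**Figure D1:**
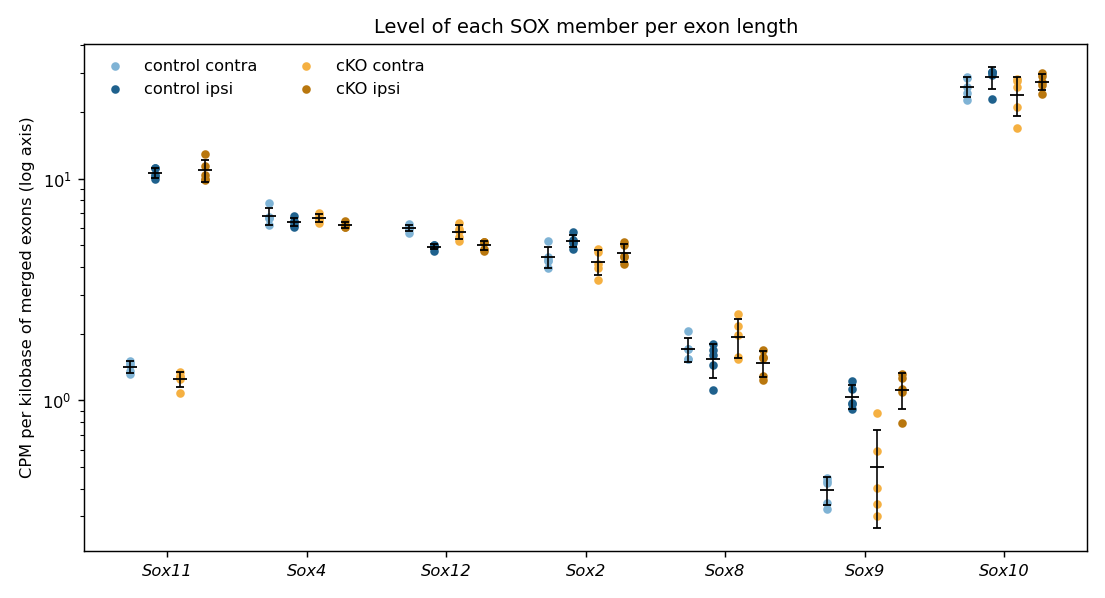
Level of each SOX gene in CPM per kilobase of merged exons on a log axis, with 1 point per library and bars for the mean and SD of 5 libraries in each of the 4 groups. Sox11 lies at 1.501 or below in the contralateral groups and at 9.85 or above in the ipsilateral groups, while Sox10 lies above all other members throughout.

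After the lesion 4 of the 7 members were called in each genotype: Sox11, Sox9 and Sox2 higher and Sox12 lower in control, and Sox11 and Sox9 higher and Sox12 and Sox8 lower in cKO. Of all tested genes, 29.9% were called in control (13.8% higher, 16.0% lower) and 31.3% in cKO (16.2% higher, 15.1% lower). Libraries of the sides did not overlap for Sox11, Sox9 and Sox12 in control and for Sox11 and Sox12 in cKO, against 23.6% and 20.2% of all tested genes. The median log2 fold change of the 7 was 0.14 in each genotype.

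**Figure D2:**
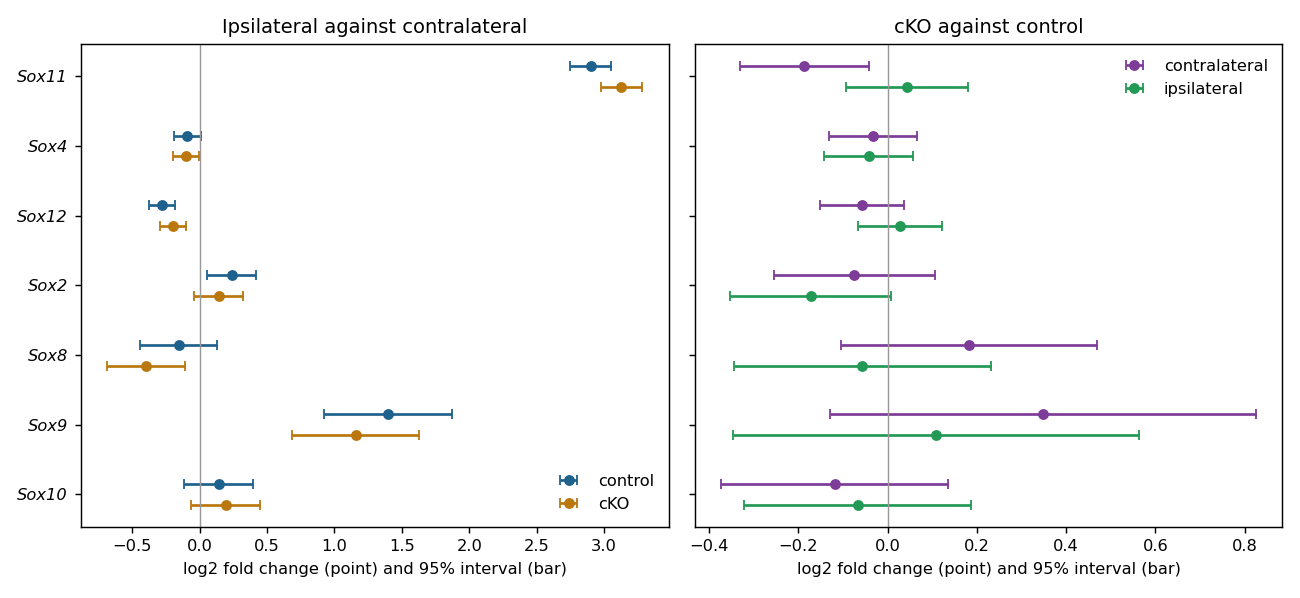
Log2 fold changes (points) with 95% intervals (bars) of the 7 SOX genes from the fit of 20 libraries, ipsilateral against contralateral in each genotype on the left and cKO against control on each side on the right. On the left, Sox11 and Sox9 lie above 0 and Sox12 below 0 in both genotypes, with intervals that leave out 0. On the right, Sox11 on the contralateral side is the single interval that leaves out 0.

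Sox11, the SoxC member tied to axon regrowth, rose 7.46-fold in control and 8.74-fold in cKO ganglia on the lesioned side. In control mice H62, H63, H65, H96 and H97 it measured 12.2, 10.9, 12.5, 12.02 and 11.3 CPM contralaterally and 92.4, 85.8, 85.6, 92.5 and 83.1 CPM ipsilaterally. In cKO mice H61, H64, H95, H99 and H100 it measured 10.7, 9.001, 10.6, 11.1 and 10.4 CPM contralaterally and 86.5, 107.4, 94.3, 82.6 and 81.8 CPM ipsilaterally. Every ipsilateral library lay far above every contralateral one, and H64 had both the lowest contralateral and the highest ipsilateral value. The log2 fold change was 2.90 (SE 0.0716, 95% interval 2.75 to 3.05, adjusted p = 6.17e-17) in control and 3.13 (SE 0.0725, 2.98 to 3.28, adjusted p = 1.76e-17) in cKO. P-values of the fit are two-sided and come from 20 libraries with 1 mean per group.

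The Sox11 response was present in both ranges of mouse numbers, which the labels do not explain. Within mice 61 to 65 the log2 fold change was 2.91 in control and 3.30 in cKO, and within mice 95 to 100 it was 2.92 and 3.02. Without mice H64 and H95 it was 2.97 in cKO. Of the named genes called higher after the lesion, 113 of 3428 in control and 110 of 4014 in cKO had a higher fold change than Sox11.

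Sox4, a close relative of Sox11 in immature neurons, was not called in either genotype. It measured 32.3, 32.0, 31.7, 37.0 and 29.5 CPM contralaterally and 29.0, 30.8, 29.7, 32.5 and 30.5 CPM ipsilaterally in the control mice, in the order above. The cKO mice had 31.0, 30.2, 31.4, 32.8 and 33.4 CPM contralaterally and 29.1, 29.3, 29.6, 31.0 and 29.0 CPM ipsilaterally. The sides overlapped in both genotypes, and the ipsilateral value was the lower one in 4 of 5 control and 5 of 5 cKO mice. The log2 fold change was -0.09 in control (95% interval -0.19 to 0.0079, adjusted p = 0.166) and -0.10 in cKO (-0.20 to -0.0017, adjusted p = 0.116). Only without control mouse H96, among the alternatives tried, was it called in cKO (-0.10, adjusted p = 0.0468). GENCODE M21 has an antisense lincRNA, Gm26735, over 2616 bases of the Sox4 exon; the strand setting of the counting is not given in the sources used here, so reads of the pair may not be separated.

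Sox12, the third SoxC gene, fell in both genotypes by a small amount. Control mice measured 26.4, 27.7, 26.7, 25.4 and 27.1 CPM contralaterally and 22.2, 21.8, 22.2, 22.4 and 21.0 CPM ipsilaterally. The cKO mice measured 26.4, 24.3, 23.2, 28.1 and 25.9 CPM contralaterally and 21.5, 23.0, 21.0, 23.1 and 23.1 CPM ipsilaterally. The sides were well separated in control and just separated in cKO, where the lowest contralateral value was 23.21 CPM and the highest ipsilateral one 23.11 CPM. Sox12 fell by 0.28 on the log2 scale in control (SE 0.0454, adjusted p = 5.98e-05) and by 0.20 in cKO (SE 0.0454, adjusted p = 0.0021), with lower ipsilateral values in 5 of 5 mice each. The size held within the ranges of mouse numbers while the call did not always: -0.27 (adjusted p = 0.00493) and -0.27 (adjusted p = 0.1004) in control, and -0.18 (adjusted p = 0.0741) and -0.20 (adjusted p = 0.125) in cKO, for mice 61 to 65 and 95 to 100.

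The SoxC group therefore held 1 gene that rose and 1 that fell in each genotype, and its median log2 fold change was -0.09 in control and -0.10 in cKO, beside -0.0047 and -0.03 over all tested genes. Sox11 made up 9.23% to 10.6% of the summed SoxC RPKM in control contralateral libraries and 48.4 ± 1.08% (SD, n = 5) in control ipsilateral ones. In cKO the share was 9.15 ± 0.499% contralaterally and 49.2 ± 3.05% ipsilaterally.

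**Figure D3:**
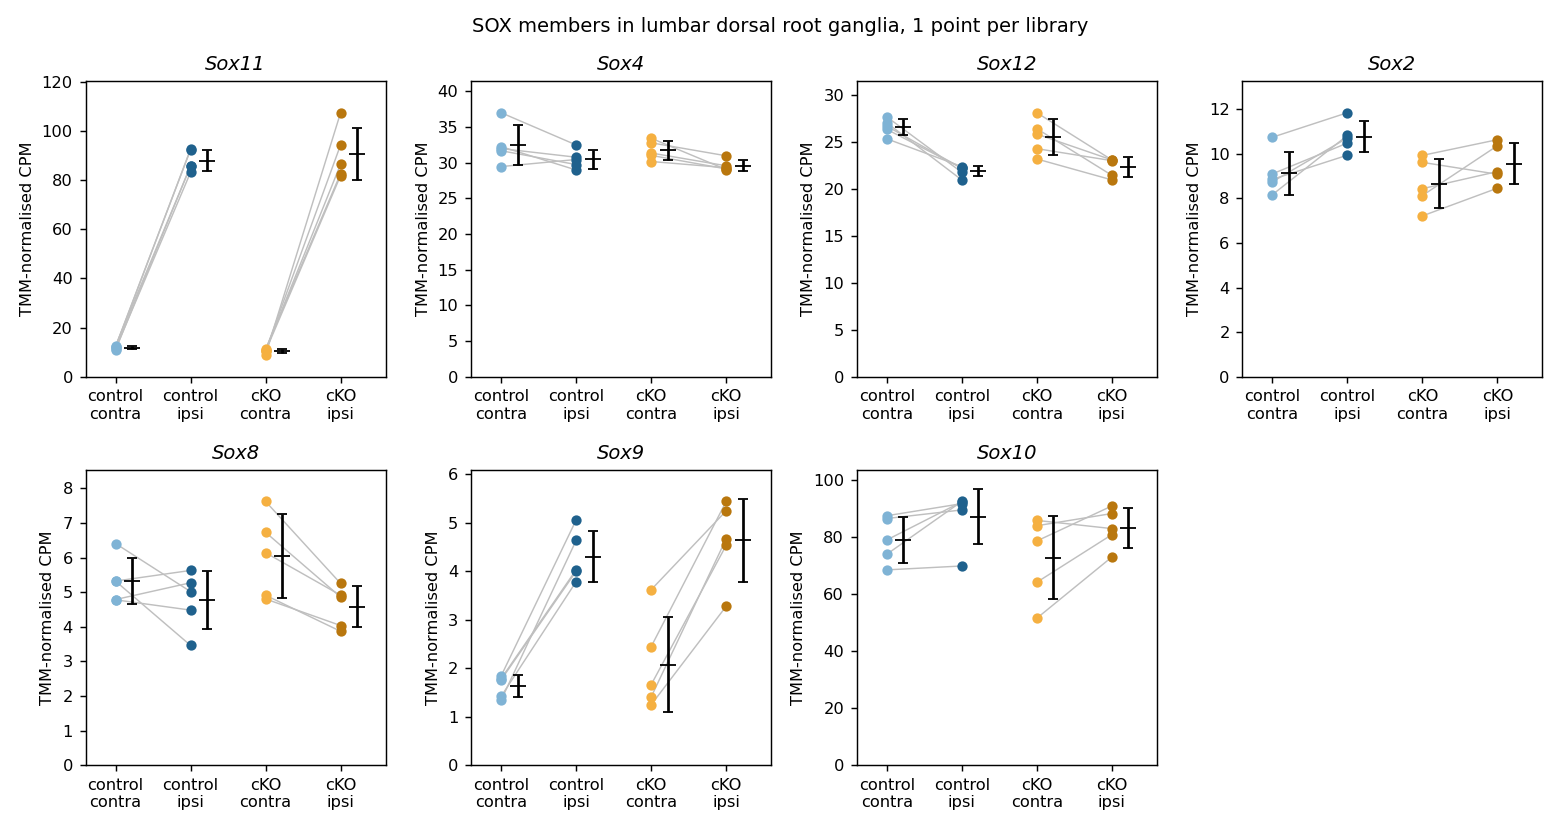
TMM-normalised CPM of each SOX gene by group, with 1 point per library, lines joining the 2 libraries of a mouse and bars for the mean and SD of 5 libraries. Only Sox11 and Sox9 show ipsilateral means more than 2 times the contralateral ones in both genotypes; Sox12 lines slope down in all 10 mice.

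Sox10, which holds peripheral glia in their identity and drives myelin genes, was not called after the lesion. Control mice measured 74.0, 87.5, 68.6, 79.1 and 86.6 CPM contralaterally and 92.6, 91.8, 69.9, 92.4 and 89.6 CPM ipsilaterally. The cKO mice measured 64.2, 78.7, 85.9, 84.0 and 51.6 CPM contralaterally and 80.9, 91.0, 83.0, 88.3 and 73.1 CPM ipsilaterally. Mouse H65 was low on both sides among controls and H100 low on both sides among cKO mice, and the sides overlapped in each genotype. The ipsilateral value was the higher one in 5 of 5 control and 4 of 5 cKO mice, with log2 fold changes of 0.14 (95% interval -0.11 to 0.39, adjusted p = 0.435) and 0.19 (-0.062 to 0.45, adjusted p = 0.251). With mouse as a replicate block the cKO value was 0.21 and was called (adjusted p = 0.0347), and the control value was 0.14 and was not (adjusted p = 0.158).

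Sox2, a factor of progenitors and immature glia, rose slightly in control ganglia. It measured 8.16, 8.74, 9.10, 10.7 and 8.85 CPM contralaterally and 10.8, 10.7, 10.5, 11.8 and 9.94 CPM ipsilaterally in control mice. In cKO mice the values were 8.43, 8.13, 9.61, 9.93 and 7.21 CPM contralaterally and 9.20, 10.4, 9.08, 10.6 and 8.46 CPM ipsilaterally. The sides overlapped in both genotypes, with a higher ipsilateral value in 5 of 5 control and 4 of 5 cKO mice. The log2 fold change was 0.24 in control (95% interval 0.057 to 0.42, adjusted p = 0.0432) and 0.14 in cKO (-0.041 to 0.32, adjusted p = 0.240).

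The control call of Sox2 was close to the threshold. Within mice 95 to 100 it was 0.16 (adjusted p = 0.638), against 0.32 (adjusted p = 0.00950) within mice 61 to 65. The call was also lost on the FPKM scale, as log2(FPKM + 1) or log2(FPKM + 0.1) (adjusted p = 0.0621 and 0.0625), and without H61, H62, H63, H65 or H97 in turn (adjusted p = 0.0576, 0.153, 0.102, 0.0732 and 0.0565). Sox2 lies inside the long noncoding gene Sox2ot on the same strand, with no shared exon, and Sox2ot was not called (0.05 and 0.06 on the log2 scale in the 2 genotypes).

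Sox9, the SoxE member of early gliogenesis and of cartilage, rose 2.63-fold in control and 2.23-fold in cKO ganglia from a low level (108 to 642 counts per library). Control mice measured 1.79, 1.76, 1.42, 1.84 and 1.35 CPM contralaterally and 4.03, 4.00, 3.79, 5.06 and 4.64 CPM ipsilaterally, with no overlap. The cKO mice measured 1.25, 2.45, 3.62, 1.41 and 1.66 CPM contralaterally and 3.28, 5.44, 5.24, 4.67 and 4.53 CPM ipsilaterally. The contralateral value of H95 exceeded the ipsilateral value of H61, the single overlap. The log2 fold change was 1.40 (SE 0.226, adjusted p = 8.52e-05) in control and 1.16 (SE 0.223, adjusted p = 0.000495) in cKO, with higher ipsilateral values in 5 of 5 mice each.

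The 2 cKO contralateral libraries with the most Sox9 were those with the highest Chad of the group, H64 and H95. The summed level of the 8 cartilage and tendon genes was 92.2 ± 55.1 CPM (37.1 to 174.8 CPM) in cKO contralateral libraries and 37.8 ± 4.56, 30.2 ± 2.76 and 29.9 ± 5.93 CPM in control contralateral, control ipsilateral and cKO ipsilateral ones; no gene of the list was at 0 throughout a group. Of the 7 that were tested, 1 fell in control and 6 fell in cKO after the lesion, beside 16.0% and 15.1% of all tested genes. Without mice H64 and H95 the cKO log2 fold change of Sox9 was 1.54 (adjusted p = 2.96e-06), so the rise was at least as large without those libraries. Within mice 61 to 65 it was 1.27 in control (adjusted p = 0.00980) and 1.25 in cKO (adjusted p = 0.0288), and within mice 95 to 100 it was 1.60 (adjusted p = 0.0369) and 1.11 (adjusted p = 0.0561). On the log2(FPKM + 1) scale, which understates changes of low genes, the values were 0.45 and 0.41 and were called.

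**Figure D4:**
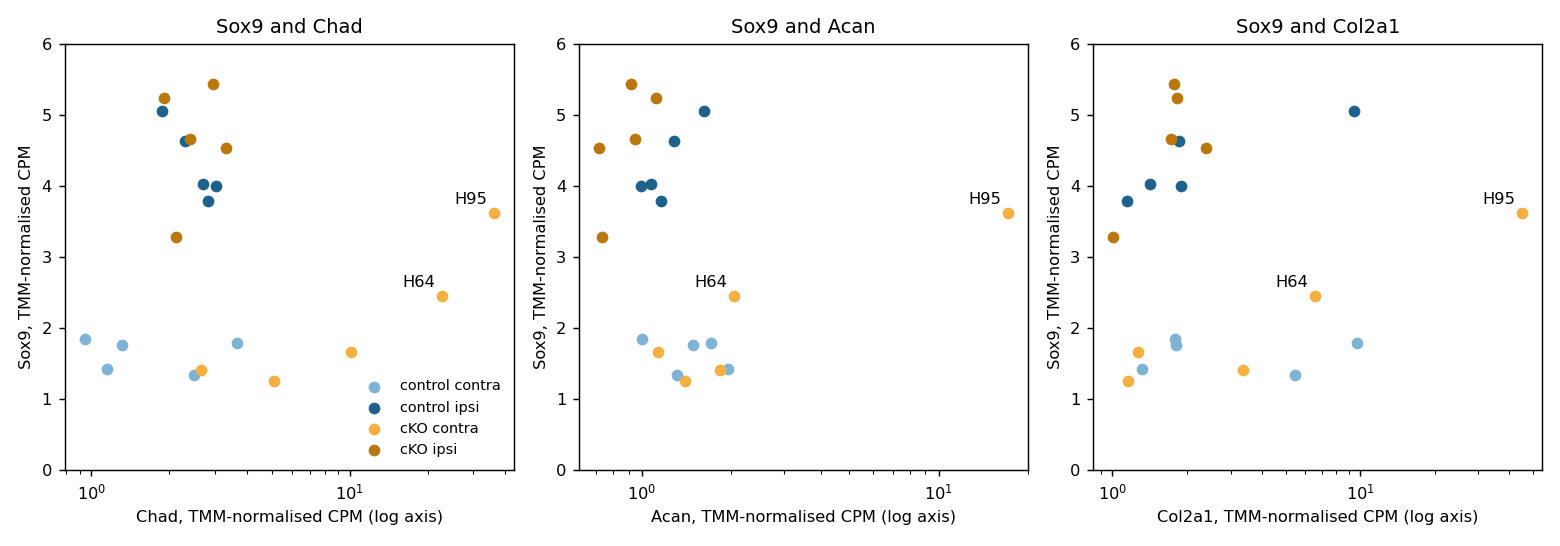
TMM-normalised CPM of Sox9 against that of the cartilage genes Chad, Acan and Col2a1 (log axis), 1 point per library in 4 groups of 5. The ipsilateral libraries hold Sox9 at 3.28 CPM or above with Chad at 3.32 CPM or below, while the labelled cKO contralateral libraries H64 and H95 combine raised Chad with the highest contralateral Sox9.

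Sox8, which is often expressed beside Sox10, fell in cKO ganglia, and this call was not stable. Control mice measured 4.78, 6.404, 5.32, 5.32 and 4.79 CPM contralaterally and 4.48, 5.02, 3.46, 5.63 and 5.27 CPM ipsilaterally. In cKO mice the values were 4.91, 7.62, 6.73, 6.14 and 4.80 CPM contralaterally and 3.87, 5.25, 4.86, 4.91 and 4.04 CPM ipsilaterally. The sides overlapped in each genotype, and the ipsilateral value was lower in 3 of 5 control and 5 of 5 cKO mice. Sox8 fell by 0.40 on the log2 scale in cKO (SE 0.138, adjusted p = 0.0337), and its control value was -0.16 (95% interval -0.45 to 0.13, adjusted p = 0.450).

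The call for Sox8 in cKO was lost without H64, H95 or H99 in turn (adjusted p = 0.0828, 0.101 and 0.0659), and without both H64 and H95 the value was -0.30 (adjusted p = 0.228). It was also lost within mice 61 to 65 (-0.45, adjusted p = 0.288), within mice 95 to 100 (-0.35, adjusted p = 0.109), with no filter on low counts (adjusted p = 0.0847) and with only the 10 cKO libraries in the fit (adjusted p = 0.0621). The 2 highest contralateral values belonged to H64 and H95, the libraries with the highest Chad of the group. The part of cartilage RNA in the Sox8 result was not tested. An antisense gene, 2810468N07Rik, shares 329 exonic bases with Sox8 in GENCODE M21; it measured 3.77 to 5.38 CPM and was not called in any comparison.

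On the lesioned side Sox11 took a larger share of the SOX transcripts, and Sox4 with Sox12 a smaller one. SoxC made up 30.5 ± 1.99% of the summed RPKM of the 7 members in control contralateral (SD, n = 5) and 37.6 ± 2.30% in control ipsilateral libraries, and in cKO 31.3 ± 4.82% and 39.1 ± 1.40%. Within it, Sox4 and Sox12 together held 27.4 ± 1.67% contralaterally and 19.4 ± 1.31% ipsilaterally in control mice. The cKO mice had 28.4 ± 4.41% and 19.8 ± 1.34%, and the sides did not overlap in either genotype. Sox10 took 55.5 ± 2.82% and 49.0 ± 2.62% in control, and 53.7 ± 4.604% and 48.2 ± 1.15% in cKO. The SoxC and the Sox10 share each separated the sides in control and overlapped in cKO, and Sox10 stayed the largest single part in every group. The shares are parts of 1 sum, so a rise of Sox11 alone lowers the shares of the other members. The Sox10 share was lower ipsilaterally although its CPM was higher there in 5 of 5 control and 4 of 5 cKO mice. Sox4 itself was not called in either genotype.

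Averaged over genes on the log2 scale, the 3 SoxC genes changed by 0.44 ± 0.108 more than the 4 glial genes in control mice (SD, n = 5) and by 0.64 ± 0.269 more in cKO mice. The difference was above 0 in each of the 10 mice, between 0.32 and 0.56 for controls and between 0.39 and 0.99 for cKO mice. The direction rested on Sox11: without it, a choice made after seeing the data, Sox4 and Sox12 changed by -0.58 in control and -0.45 in cKO relative to the 4 glial genes. The medians over genes also had the other order, at -0.09 and -0.10 for SoxC and 0.19 and 0.17 for the glial genes in control and cKO. Leaving out the 2 genes Sox12 and Sox2 made the difference 0.95 and 1.15. Between Sox11 and Sox10 alone the change differed by 2.76 ± 0.120 in control and 2.91 ± 0.369 in cKO. Since the members were chosen with results known, these values are a description and carry no test.

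Between genotypes no member was called on either side. On the contralateral side 0.0735% of all genes were called. Sox11 was the 1 member of 7 at an unadjusted p under 0.05, a level that 5006 of the 28564 tested genes reached. Its log2 fold change, cKO against control, was -0.19 (95% interval -0.33 to -0.042, adjusted p = 0.177). No member had libraries that did not overlap between genotypes, against 1.52% of all genes contralaterally and 0.599% ipsilaterally. The other members had contralateral values from -0.12 for Sox10 to 0.35 for Sox9 (adjusted p = 0.453). Without H64 and H95 the Sox9 value was -0.18, Sox8 went from 0.18 to -0.0069, and Sox11 was -0.13. On the ipsilateral side 0.00700% of all genes were called, no member had an unadjusted p under 0.05, and the lowest was that of Sox2 (-0.17, 95% interval -0.35 to 0.0084, adjusted p = 1.0). Ipsilateral Sox11 differed by 0.04 (-0.094 to 0.18). DESeq2 called no member on either side. Cell type markers differed too, on both sides. Contralaterally all 7 fibroblast markers were higher in cKO (median 0.85, 6 at an unadjusted p under 0.05, 0 called by edgeR and 3 by DESeq2). All 7 tested cartilage and tendon genes were higher (median 1.66), while 12 of 14 sensory neuron markers were lower (median -0.03, beside -0.013 over all tested genes). All markers of skeletal muscle (median 1.41), macrophages (0.23), endothelium (0.17) and cycling cells (0.56) were higher, with 0 called. Glial and mural cell markers went both ways. Ipsilaterally all markers of skeletal muscle (-2.46), endothelium (-0.12) and satellite glia (-0.09) were lower, with 0 called. So were 9 of 10 Schwann cell markers, while fibroblast and cycling cell markers went both ways. The part of these cells in the SOX values was not tested.

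The injury responses of the genotypes were compared by the interaction of genotype and side, with 0% of all genes and no member called by edgeR. DESeq2 called 12 genes there, and 2799 genes had an unadjusted p under 0.05 in edgeR. For Sox11 the cKO response was larger by 0.23 (95% interval 0.030 to 0.43, adjusted p = 0.498), the 1 member at an unadjusted p under 0.05. DESeq2 also gave 0.23 (adjusted p = 0.360) and called no member. With mouse as a replicate block, which keeps the pairing, edgeR gave 0.22 (SE 0.108, adjusted p = 0.465). In that fit 0 members had an unadjusted p under 0.05. The per-mouse responses of Sox11 were 2.78 to 2.97 in control and 2.89 to 3.57 in cKO, with H64 the highest. Without H64 the difference was 0.11 (adjusted p = 0.789). Within mice 61 to 65 it was 0.40 and within mice 95 to 100 0.10. The Sox9 difference was -0.24 (-0.90 to 0.42), and 0.13 without H64 and H95. The comparisons between genotypes and between sides share their libraries.

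Of the 13 further SOX genes of the mouse, 8 passed the filter, and Sry, Sox1, Sox14, Sox21 and Sox30 did not. Sox7, of the SoxF group of vascular endothelium, rose in both genotypes. It measured 1.24 ± 0.251 CPM contralaterally and 2.61 ± 0.258 CPM ipsilaterally in control (SD, n = 5), and 1.37 ± 0.238 and 2.55 ± 0.245 CPM in cKO, with no overlap of the sides in either genotype. The log2 fold change was 1.08 (adjusted p = 1.61e-06) and 0.90 (adjusted p = 1.52e-05). The SoxF relatives were not called by edgeR: Sox18 had 0.58 and 0.23, and Sox17 0.28 and 0.07, in control and cKO.

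Sox3, a relative of Sox2 in group SoxB1, had 0.53 (adjusted p = 0.0567) and 0.39 (adjusted p = 0.168). Sox5, Sox6 and Sox13 of group SoxD and Sox15 had values between -0.10 and 0.18. The median of the 8 was 0.23 in control and 0.08 in cKO, beside -0.0047 and -0.03 over all tested genes, and DESeq2 called 3 of them in control and 1 in cKO. Of 7 endothelial markers, 3 rose in control, where 13.8% of all tested genes rose. In cKO 0 of the markers were called (0 at an unadjusted p under 0.05, 0 by DESeq2). Their medians were 0.40 and 0.07, with summed levels of 96.02 to 165.7 CPM over all groups. The part of endothelial cells in the Sox7 result was not tested.

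**Figure D5:**
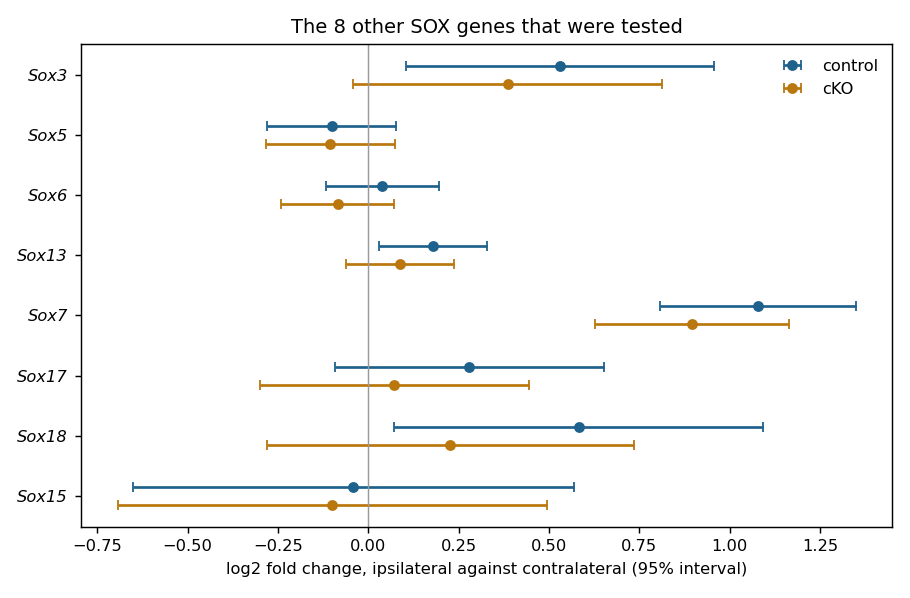
Log2 fold changes (points) with 95% intervals (bars), ipsilateral against contralateral in each genotype, of the 8 SOX genes beyond the 7 that were tested. Sox7 alone has intervals clear of 0 in both genotypes, at 1.08 in control and 0.90 in cKO.

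Genes linked to SoxC in neurons were led by injury genes. The list was chosen with earlier results of these data known and includes injury genes, so its counts are a description and carry no test. Of 10, 5 rose and 1 fell in control, and 5 rose and none fell in cKO. Of all tested genes, 13.8% rose and 16.0% fell in control, and 16.2% rose and 15.1% fell in cKO. Sprr1a, a growth-associated gene of injured neurons, rose by 5.32 in control and 5.35 in cKO on the log2 scale (adjusted p = 1.42e-09 and 1.11e-09). Atf3, the injury transcription factor, rose by 5.23 and 5.50 (adjusted p = 3.23e-18 and 1.78e-18). Bdnf, a neurotrophin, rose by 1.11 and 1.30 (adjusted p = 4.14e-10 and 3.06e-11), and Gap43 and Tank were the other two. Dcx, a microtubule protein of immature neurons, fell by 0.51 in control (adjusted p = 0.00121). Tubb3, the neuronal tubulin that SoxC proteins activate in development, had 0.10 and 0.02 and was not called. In the interaction 0 genes of this list were called. The list's median was 0.10 and 0.08.

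Among 17 glial genes linked to SoxE, few were called. In cKO, where 15.1% of all tested genes fell, 3 of the list fell: Mia (-1.08, adjusted p = 0.0393), Mitf (-0.27, adjusted p = 0.0160) and S100b (-0.10, adjusted p = 0.0466). Mia is also a secreted protein of cartilage cells and Mitf the regulator of melanocytes. Values of these genes without H64 and H95 are not given here. Summed cartilage and tendon genes in cKO measured 92.2 ± 55.1 CPM contralaterally and 29.9 ± 5.93 CPM ipsilaterally. The part of cartilage RNA in the Mia result was not tested. The list's median was 0.03 in control and -0.03 in cKO. Of the 10 Schwann cell markers, 0 were called in either genotype by edgeR, with 1 in control and 2 in cKO at an unadjusted p under 0.05, and DESeq2 called 1 in each.

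Repair genes of Schwann cells and partner pathway genes of Sox2 and Sox9, also chosen with earlier results known, were set beside all tested genes. Of those, 29.9% were called in control and 31.3% in cKO. Of 9 tested repair genes, 4 rose and 1 fell in control, and 6 rose and none fell in cKO. Gfap, a filament protein of reactive glia, rose by 2.38 and 2.22 (adjusted p = 0.000241 and 0.000604), Jun, the repair regulator that neurons also express, by 1.51 and 1.70 (adjusted p = 4.55e-17 and 4.39e-18), Artn, a neurotrophic factor, by 1.17 in control (adjusted p = 0.0265) and Shh by 0.80 in cKO (adjusted p = 1.36e-07). Artn and Shh are given for 1 genotype each because only the 3 largest called changes per genotype are named. In the interaction 0 genes of the list were called. The list's median was 0.33 and 0.30. Of 13 Notch, NFI and ID genes, 1 rose and 2 fell in control and 1 rose and 3 fell in cKO. Counting calls in either direction, the share of these 13 genes was no larger than that of all tested genes in each genotype. By direction, the share that fell in cKO, 3 of 13, was larger than the 15.1% of all tested genes. The medians of the 13 genes were 0.13 and -0.22. Rbpj, the DNA-binding partner of Notch, rose by 0.41 and 0.43 (adjusted p = 1.07e-06 and 4.76e-07), while Nfia, a gliogenic factor, fell by 0.29 and 0.37 (adjusted p = 2.80e-05 and 8.87e-07). The largest called change of these genes in cKO was that of Id1, which fell by 0.68 (adjusted p = 0.0133). Hey1 fell by 0.20 in control (adjusted p = 0.00356). Both are given for 1 genotype by the same naming rule.

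Markers of the cells that could carry the members overlapped in level between the sides. Satellite glial markers summed to 2188 to 2391 CPM contralaterally and 2368 to 2652 CPM ipsilaterally in control, and to 2191 to 2514 and 2279 to 2563 CPM in cKO. Of the 8, 2 rose in control, Glul and the potassium channel gene Kcnj10, and 3 in cKO, those and Ptprz1 (13.8% and 16.2% of all tested genes rose). Of 14 sensory neuron markers, 5 fell in control and 3 in cKO (16.0% and 15.1% of all tested genes fell), with medians of -0.03 and -0.08. None of these lists had a marker at 0. In whole ganglia, fewer cells of a type and less RNA per cell cannot be told apart, and whether a changed share of glia or neurons bears on the SOX levels was not tested.

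Markers of other cell types moved in part, and their part in the SOX results was not tested. Over all tested genes, 29.9% were called in control and 31.3% in cKO. Of 11 macrophage markers, 1 rose in control and 0 were called in cKO by edgeR or DESeq2, with 0 at an unadjusted p under 0.05. Of 7 fibroblast markers, 0 were called in control (1 at an unadjusted p under 0.05, 1 by DESeq2) and 1 fell in cKO, where the summed level was 937.0 to 2245 CPM contralaterally and 850.1 to 1560 CPM ipsilaterally. Of 6 mural cell markers, 1 rose in each genotype. Of 6 skeletal muscle markers, 0 were called in either genotype by edgeR (0 in control and 1 in cKO at an unadjusted p under 0.05, with 0 and 3 called by DESeq2). Of 6 cycling cell markers, 0 were called in either genotype by edgeR (1 and 0 at an unadjusted p under 0.05, and 0 by DESeq2). Of 5 tested spinal cord glia markers, 3 rose in control and 1 in cKO, with summed levels of 37.0 to 38.6 CPM contralaterally and 39.4 to 53.8 CPM ipsilaterally in control and of 36.1 to 38.2 and 39.0 to 40.5 CPM in cKO, so that the sides were separate in both genotypes. Olig2, the sixth, did not pass the filter and had no count in control contralateral libraries. Sox6, given above among the other SOX genes, is 1 of the 5 tested markers. The 53.8 CPM was that of 1 control ipsilateral library, H96, and the next highest of its group was 41.2 CPM in H97.

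The muscle markers differed between libraries far more than the counts of calls show. Their median log2 fold change was 0.48 in control and -3.46 in cKO, and their summed level ran from 4.75 to 1709 CPM in cKO contralateral and from 2.15 to 117.1 CPM in cKO ipsilateral libraries. The contralateral library of cKO mouse H100 had the 1709 CPM, against 63.4 CPM at most in the other 4 of its group, and it also had the lowest Sox10 (51.6 CPM). Among controls the highest sums were 634.9 CPM in the ipsilateral library of H65, the one with the lowest Sox10 of its group, and 371.7 CPM in the contralateral one of H62. Without H100 the same 4 members were called in cKO, with log2 fold changes of 3.16 for Sox11, 1.09 for Sox9, -0.20 for Sox12 and -0.43 for Sox8, and Sox10 had 0.13 (adjusted p = 0.375). Without H65 the control value of Sox10 was 0.18 (adjusted p = 0.339). The part of muscle RNA in the Sox10 levels was not tested.

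Genes whose level followed that of a member most closely over the 20 libraries were searched among 13106 named genes that averaged 5 CPM or more. For Sox11 they were Sema6a (Pearson r of log2 CPM 0.999), Flrt3 (0.999), Gadd45a (0.998), E230016M11Rik (0.998) and Itpkc (0.997). Sema6a had log2 fold changes of 3.21 and 3.43 and Flrt3 of 3.30 and 3.59 in control and cKO. These points fall into a low contralateral and a high ipsilateral cluster, so the coefficients mainly state that the same side was high.

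For Sox10 the nearest genes were Itpr3 (0.899), Sorcs1 (0.894), Hey2 (0.889), Caskin2 (0.880) and Notch1 (0.878), and for Sox2 they were Gpr37l1 (0.834), Itgb8 (0.808), Ttyh2 (0.802), Kcnn4 (0.801) and Nwd1 (0.798). Their log2 fold changes after the lesion lay between 0.03 and 0.33. The libraries share their mice and normalization, and the coefficients are a description with no test.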

How the data were processed

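RNA was measured in 20 stranded mRNA libraries from lumbar ganglia of 10 mice, read as paired 150 bp reads, per the labels' protocols. The authors deposited whole-number exonic counts per gene without normalization, and FPKM that divide the same counts by 1 length per gene. That length was the whole span with introns for Sox10 (10333 bases, against 3051 of merged exons), so FPKM were compared only within genes. The submitters' processing notes name HISAT2, Picard, mm10 and mm39; the counting program, annotation and strand setting are not given in the sources used here. Symbols came from GENCODE M21 and matched 51487 of 78258 identifiers, which held 98.1% of the counts.

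Counts were analysed with edgeR 4.0.16 in R 4.3.3 (TMM scaling, filterByExpr with a minimum count of 10 and a total of 15, glmQLFit with robust shrinkage and glmQLFTest). The model had 1 mean for each of the 4 groups and was fitted to the 20 libraries together. P-values were adjusted by Benjamini-Hochberg over 28564 genes, and genes with an adjusted p under 0.05 are those named as called. The fit was tested on simulated data. Replicates are separate mice, so intervals cover the spread between mice. Depth was 76.2 to 118.5 M counts per library; reads carried no molecular identifiers.

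The sides of a mouse are paired by animal. Deviations of its libraries from their group means correlated across genes with a median of 0.186 (-0.0546 to 0.361), over 0.1 in 7 of 10 mice. The replicate block was an alternative, beside DESeq2 1.42.0, RLE size factors, other filters, only the libraries compared, mouse numbers 61 to 65 against 95 to 100 as a covariate or analysed alone, limma 3.58.1 on log2(FPKM + 1) and log2(FPKM + 0.1), and leaving out each mouse. Leaving out H64 and H95 together, or Sox11 from the SoxC mean, was chosen after seeing the data.

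The members and the gene lists were chosen with earlier results of these data known. Of each list, the called genes with the 3 largest absolute changes after the lesion are named; Gap43, Tank, Tubb3, Dcx, Glul, Kcnj10 and Ptprz1 were named after their values were seen. Promoters were read from RefSeq windows of GRCm38.p6. One result of the glial list is not reported here.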

Additional observations from a re-analysis of the deposited data

Results flagged for a closer look

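Each member was examined in each of the 4 groups of 5 libraries, and its per-mouse change after the lesion in each genotype, which makes 42 sets of 5 values. In 2 of them, both of library levels, 1 value lay far from the others; chance gives about 2.1. In control ipsilateral ganglia, Sox10 of mouse H65 (69.9 CPM) lay below the other 4 (89.6 to 92.6 CPM), with a gap of 0.883 of the group's range in log2 CPM, above the critical value of 0.71. The contralateral library of the same mouse was also the lowest of its group for Sox10 (68.6 CPM). In cKO ipsilateral ganglia, Sox4 of mouse H99 (31.0 CPM) lay above the other 4 (29.0 to 29.6 CPM), with a gap of 0.715 of the range.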

How the results depend on the processing

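Of 749 values of single members under the alternatives, 708 kept direction and side of the threshold, 20 lost the call, 2 gained it and 19 changed sign. Sox11 and Sox9 kept their rise in both genotypes under every alternative run, except that Sox9 in cKO lost its call within mice 95 to 100; Sox12 lost its call only within a range of mouse numbers. The replicate block changed no call of a member other than that of Sox10 in cKO (0.21, adjusted p = 0.0347).

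Sign changes were of uncalled values, and their cause was not tested. Within mice 61 to 65 they were Sox8 0.085 and Sox10 0.024 between genotypes ipsilaterally, and Sox4 0.017 in the interaction. Within mice 95 to 100 they were Sox8 0.11 after injury in control, and Sox11 -0.025 and Sox9 -0.0074 between genotypes ipsilaterally. Leaving out 1 mouse at a time gave -0.053 to 0.022 for Sox4 between genotypes contralaterally (above 0 without H96), -0.026 to 0.077 for Sox11 (below 0 without H64) and -0.145 to 0.0084 for Sox8 (above 0 without H96) ipsilaterally, and in the interaction -0.042 to 0.017 for Sox4 (above 0 without H97 or H100) and -0.0071 to 0.11 for Sox10 (below 0 without H100). Without both H64 and H95, contralateral differences between genotypes were Sox4 4.03e-05, Sox12 0.012, Sox8 -0.0069 and Sox9 -0.18 (from 0.35), ipsilateral ones Sox11 -0.072 and Sox9 -0.048, and the Sox9 interaction 0.13 (from -0.24).

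With all mice 8540 genes were called after injury in control and 8939 in cKO, and 4 members in each. Within mice 61 to 65 and 95 to 100, 4607 and 3330 genes were called after injury in control and 4305 and 4008 in cKO, and members called were 4 and 2 in control and 2 and 1 in cKO. Without H64 and H95, 5587 genes were called in cKO and 8657 in control. Leaving out each mouse gave 6832 to 8891 genes in control and 7151 to 9077 in cKO, with 3 to 4 and 3 to 5 members.

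The 21 genes called between genotypes contralaterally became 1032 with DESeq2, 50 with no filter, 45 with a mean of at least 1 CPM, 2 with only the libraries compared, 3 and 7 within mice 61 to 65 and 95 to 100, 6 and 7 on log2 FPKM with a pseudocount of 1 and 0.1, 3 without H64 and H95, and 4 to 3326 when 1 mouse was left out, the highest without H99 and 174 without H61. No member was called there in any of these. Ipsilaterally 2 genes became 6 within mice 95 to 100. In the interaction 0 genes became 12 with DESeq2 and 0 to 43 without 1 mouse, the highest again without H99. The SoxC minus glial change reversed without Sox11, to -0.58 in control and -0.45 in cKO. It was 0.95 and 1.15 without Sox12 and Sox2; leaving out each mouse gave 0.41 to 0.47 and 0.55 to 0.70. Sox9 had the lowest counts of the 7, 108 to 642 per library.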

Other observations

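Among the SOX genes below the filter, 2 had counts in few libraries. Sox1, a SoxB1 gene of neural progenitors and some central neurons, had 29 counts in the ipsilateral library of control mouse H96 and 20 in that of H97, and in no contralateral library did it have more than 2. Sox21, a SoxB2 gene, had 13 and 10 counts in the same libraries and none in either contralateral group or in cKO ipsilateral libraries. These libraries also had the highest summed spinal cord glia markers, 53.8 CPM in H96 and 41.2 CPM in H97. Only H96 stood apart, since the ipsilateral library of cKO mouse H100 had 40.5 CPM. Which tissue gave the Sox1 and Sox21 counts was not tested.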
